A study of Mus musculus with 6 samples.

Results

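The AP-1 and EGR immediate early genes are Fos, Fosb, Fosl2, Jun, Junb, Jund, Egr1, Egr2, Atf3 and Ier2, 10 of the 18194 genes measured on 6 mouse leukemia arrays. They were chosen by symbol, from a pattern already seen in these values, in which the array numbered 1 of each group read high, so that pattern is described below and not tested. Together they had 14 probe sets, and the brightest probe set of each gene, by mean log2 intensity over all arrays, stood for it. The question of the study was how loss of Runx1, a transcription factor of blood stem and progenitor cells, altered leukemias that arise from MLL-ENL. This fusion joins a part of MLL, a histone methyltransferase, to a part of ENL, a transcription elongation factor. The groups were 3 arrays labelled Runx1-KO, from leukemias grown out of bone marrow in which Runx1 had been excised, and 3 labelled Control, from marrow with Runx1 intact. All 6 were of the C57BL/6 strain, and in both groups the marrow was transduced with MLL-ENL, transplanted into congenic mice and collected as leukemic cells when the recipients were moribund. The arrays of a group came from independent leukemias. How Runx1 was excised, whether Control marrow carried a modified allele, the age of the mice and the tissue of harvest were not stated in the sources used here.

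Immediate early genes are transcribed within minutes of a growth factor, cytokine or stress signal, from promoters that need no newly made protein, and their mRNAs are short-lived. MAP kinases act on serum response factor and its ternary complex partners, and on CREB and ATF proteins, at these promoters. FOS and JUN proteins pair through leucine zippers to form the transcription factor AP-1, while EGR proteins are zinc finger factors that bind GC-rich sites. In the myeloid lineage JUN, EGR1 and EGR2 are known for promoting monocyte and macrophage development.

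RefSeq promoter windows of build GRCm38.p6 were held for 8 of the 10 genes, and not for Egr1 and Ier2. Fos, Jun, Egr2 and Atf3 are shown because each matched at least 1 of the CRE, CRE or AP-1 octamer and serum response motifs searched. These genes and motifs were picked with earlier results of these data known. The share of all windows with any of these motifs was not counted, and a link of matches to levels was not tested. Each of the first 3 lines gives the 250 bases before a transcription start, 5′ to 3′ on the gene's strand. Fos lies at chr12:85473640-85473889 on the plus strand, Jun at chr4:95052223-95052472 on the minus strand and Atf3 at chr1:191183334-191183583 on the minus strand. The Egr2 line gives only the 22 bases of a CArG box, the site of serum response factor, and the CRE core that follows it, at chr10:67537797-67537818 on the plus strand, which lay in 3 of the 5 windows of that gene. Capitals mark matches to the motifs searched.
Fos: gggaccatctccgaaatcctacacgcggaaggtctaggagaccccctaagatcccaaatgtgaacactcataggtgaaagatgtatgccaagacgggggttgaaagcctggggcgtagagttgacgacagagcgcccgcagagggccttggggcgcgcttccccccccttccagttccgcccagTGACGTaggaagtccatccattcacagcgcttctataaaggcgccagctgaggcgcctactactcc
Jun: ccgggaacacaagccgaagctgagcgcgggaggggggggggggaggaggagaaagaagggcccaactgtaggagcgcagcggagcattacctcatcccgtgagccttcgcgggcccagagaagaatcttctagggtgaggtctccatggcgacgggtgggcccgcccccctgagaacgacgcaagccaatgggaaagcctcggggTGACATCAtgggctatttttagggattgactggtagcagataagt
Atf3: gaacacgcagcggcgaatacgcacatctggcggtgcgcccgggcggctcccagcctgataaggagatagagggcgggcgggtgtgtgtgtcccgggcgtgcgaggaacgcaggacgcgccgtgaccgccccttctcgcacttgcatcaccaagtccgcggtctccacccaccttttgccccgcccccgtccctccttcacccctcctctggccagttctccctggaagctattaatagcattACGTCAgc
Egr2: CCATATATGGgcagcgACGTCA
The motifs were searched on both strands of the 250 bases before each start, in 32851 windows. The CRE core TGACGT, which overlaps the octamer TGACNTCA where that reads as a full CRE, was found in 6.47% of all windows and in those of Fos, Egr2 and Atf3. The octamer TGACNTCA was found in 7.49% of windows and in that of Jun, and the CArG box in 1.47% of windows and in those of Egr2. The AP-1 heptamer TGANTCA was found in 6.75% of windows and in 0 of the 8 genes. The EGR site GCGNGGGCG was found in 4.7% of windows and in those of Fosb and Fosl2. A match is a run of letters in these windows, and binding was not measured. Bases farther from a start, and any of Egr1 and Ier2, were not searched. A gene without a match here may therefore still hold such a site.

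The label of the arrays was checked first. Runx1 signal was 1128, 1573 and 1630 on the arrays labelled Runx1-KO 1, 2 and 3 and 680.3, 1022 and 850.0 on Control 1, 2 and 3, and 6 of its 6 probe sets averaged higher in Runx1-KO. Where its probes lie in relation to the excised exons was not stated, so this signal cannot check the genotype, and directions are given for the arrays by their labels. The Y-linked gene Eif2s3y read 5.3, 6.3 and 4.0 on the arrays labelled Runx1-KO, all below background, and 683.6, 638.0 and 706.7 on Control, so sex and genotype cannot be told apart in any group difference. Xist, which silences the inactive X chromosome, was 1624, 1857 and 1895 in Runx1-KO and 331, 85.4 and 25.3 in Control, so Control 1 stood above the other Control arrays in it. Hoxa9, a marker of MLL fusion leukemias, read 3114 to 3282 in Runx1-KO and 2791 to 2971 in Control. The background limit of an array was its highest signal among 27 spike-in probe sets without target, 14.1 to 22.5. Of the 10 genes, 9 lay above it on all 6 arrays, and Junb on 2.

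Among the AP-1 subunits, Fos, which pairs only with other bZIP proteins and not with itself, differed most between arrays. Its intensity was 2179, 104 and 268 on Runx1-KO 1, 2 and 3, against 1800.4, 396 and 507 on Control 1, 2 and 3. The arrays numbered 1 were the 2 highest, and the groups overlapped. The log2 difference, Runx1-KO minus Control, was -0.86 ± 1.18 (SE, n = 3 per group), with a 95% interval from -3.72 to 2.003 and a limma adjusted p of 0.801. Within groups the log2 level had an SD of 2.25 in Runx1-KO and 1.17 in Control.

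Jun, the main transactivating partner of FOS, also read highest on the arrays numbered 1. It stood at 2617, 441 and 322 on the arrays labelled Runx1-KO and at 1926, 687 and 756 on Control. Both arrays numbered 1 were above the rest, and among the other 4 arrays both Runx1-KO arrays were below both Control arrays. The difference was -0.48 ± 0.86 (interval -2.55 to 1.60, limma adjusted p = 0.853). The other Jun probe set had the arrays numbered 1 highest too, with a difference of 0.03 ± 0.98. Its Pearson r with the first was 0.96 over the 6 arrays. On the arrays numbered 2 and 3 it read 144.1 and 128.7 in Runx1-KO and 144.0 and 201.6 in Control, so there the groups overlapped.

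Fosb, a FOS relative known from sustained stimulation, followed another course. It read 864, 605 and 68.1 on Runx1-KO 1, 2 and 3, while the Control arrays lay close together at 305, 267 and 298. The Control values stood between the highest and the lowest Runx1-KO values. The difference was 0.18 ± 0.93 (interval -2.07 to 2.44, limma adjusted p = 0.956), and the SD of the log2 level was 1.98 in Runx1-KO and 0.10 in Control.

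Fosl2, which encodes the FOS-related protein FRA2, varied least with the array number. Its brightest probe set was 633, 925 and 748 in Runx1-KO and 713, 512 and 609 in Control, and the groups overlapped. The difference was 0.33 ± 0.23 (interval -0.24 to 0.89, limma adjusted p = 0.597). Its second, dimmer probe set read 79.0, 114 and 60.7 in Runx1-KO and 40.5, 50.3 and 35.6 in Control. On that probe set the groups did not overlap, Runx1-KO being higher by 0.97 ± 0.29, but with all 34958 probe sets tested the limma adjusted p was 0.300. The Pearson r between the Fosl2 probe sets was 0.61 over the 6 arrays.

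Jund, the JUN relative that is present in resting cells, was steady on its brightest probe set. It read 2876, 2514 and 1739 in Runx1-KO and 2094, 1707 and 1907 in Control, with a highest level 1.69-fold above the lowest. The groups overlapped and differed by 0.30 ± 0.25 (interval -0.30 to 0.89, limma adjusted p = 0.657). The second, dimmer Jund probe set read 50.1, 42.0 and 27.1 in Runx1-KO and 43.9, 27.6 and 27.4 in Control. On that probe set the arrays numbered 1 were the 2 highest. Junb, a JUN relative that restrains myeloid proliferation in mice, was near background, at 17.9, 12.6 and 12.8 in Runx1-KO and 32.6, 11.6 and 12.2 in Control. It was above the limit only on the arrays numbered 1, so no fold is stated (limma adjusted p = 0.863).

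The EGR genes followed Fos and Jun. Egr1, which encodes a zinc finger factor induced with Fos, was 2483, 321 and 252 in Runx1-KO and 1891, 315 and 882 in Control. The arrays numbered 1 were again highest, and Control 3 was the next. The difference was -0.46 ± 1.04 (interval -2.99 to 2.06, limma adjusted p = 0.885). Egr2, a related factor of macrophages and Schwann cells, was 248, 86.3 and 94.3 in Runx1-KO and 504, 55.4 and 230.1 in Control. Control 1 was the highest array and Control 2 the lowest, so the spread of Control enclosed Runx1-KO. The difference was -0.56 ± 0.86 (interval -2.63 to 1.52, limma adjusted p = 0.826). The second Egr2 probe set had a difference of -0.56 ± 0.87 and an r of 0.97 with the first. On it Control 3 (175.3) was above Runx1-KO 1 (127.3), so the arrays numbered 1 were not the 2 highest.

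Atf3 encodes a stress-induced bZIP factor that binds as a dimer with JUN proteins or itself. It was 395, 87.3 and 96.4 in Runx1-KO and 261, 106 and 121 in Control, with the arrays numbered 1 highest. The geometric means were 149.3 and 149.6, a difference of 0.00 ± 0.67 on the log2 scale (interval -1.62 to 1.61). Ier2, a nuclear protein of the immediate early response, was 549, 330 and 230 in Runx1-KO and 365, 199 and 265 in Control, and differed by 0.37 ± 0.39 (interval -0.57 to 1.31, limma adjusted p = 0.735). Its arrays numbered 1 were also the 2 highest, by a smaller margin than those of Atf3.

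**Figure D1:**
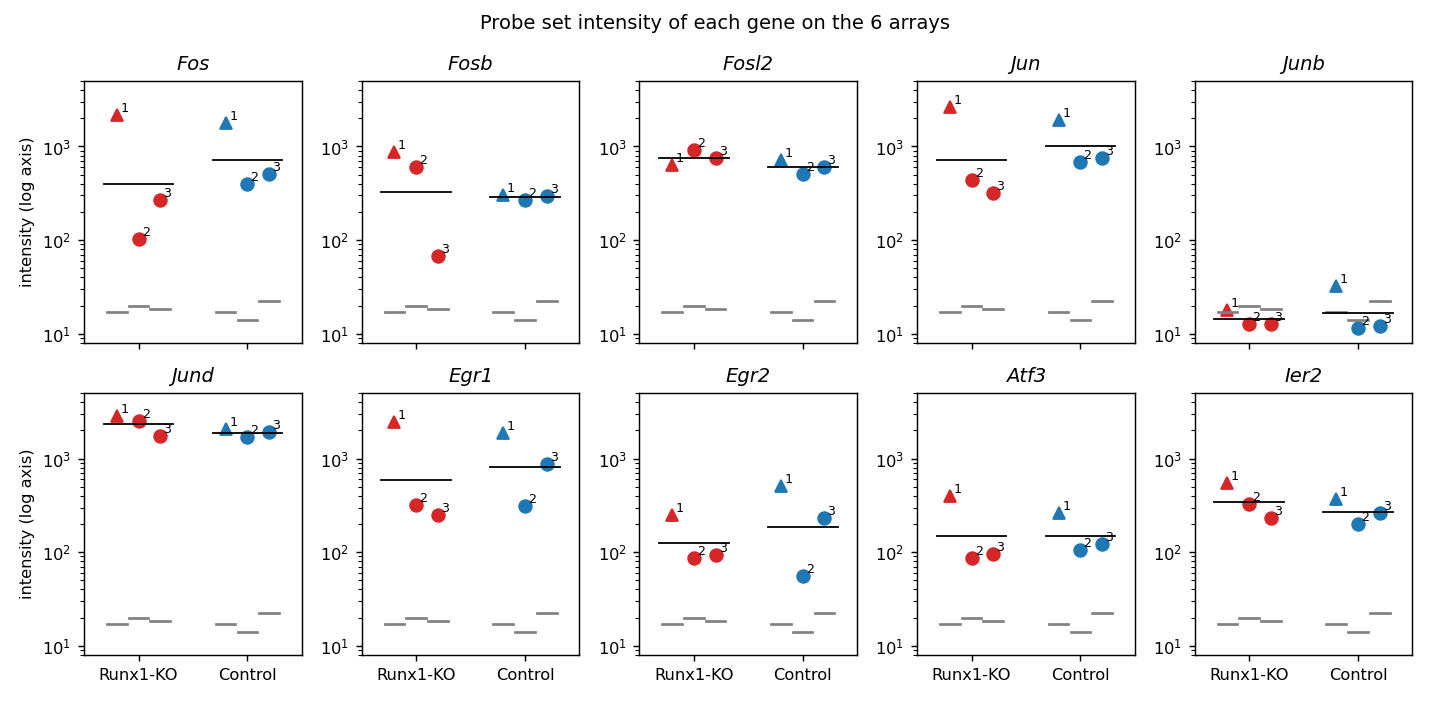
Intensity on a log axis of the brightest probe set of each gene, with Runx1-KO arrays in red to the left and Control arrays in blue to the right. Triangles are the arrays numbered 1 and circles those numbered 2 and 3, black lines are geometric means of 3 arrays and grey ticks are the background limit of each array. The triangles lie above the other arrays in both groups for Fos, Jun, Egr1, Egr2 and Atf3, while Fosl2 and Jund are nearly level.

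By its brightest probe set, no gene of the set separated the groups. The dimmer Fosl2 probe set did, with an unadjusted limma p of 0.0151 and an adjusted p of 0.300 over all probe sets. In limma's fit over all 18194 genes, 0 of the 10 passed an adjusted p of 0.05, and 0 of the 10 had an unadjusted p under 0.05. Over all genes, 0.0879% passed the adjusted threshold, 0.033% as higher and 0.055% as lower in Runx1-KO, and 12.6% the unadjusted value. The groups overlapped in all 10 genes, whereas in 20.9% of all genes they did not, 9.17% with Runx1-KO higher and 11.7% with Runx1-KO lower. The differences of 4 genes were above 0 and of 6 below, with a median of -0.12 beside -0.01 over all genes. The intervals were wide: that of Fos allows Runx1-KO to be lower or higher by several fold, so similar levels are not shown either. In a mixed cell sample, fewer cells of a type and less RNA per cell cannot be told apart.

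**Figure D2:**
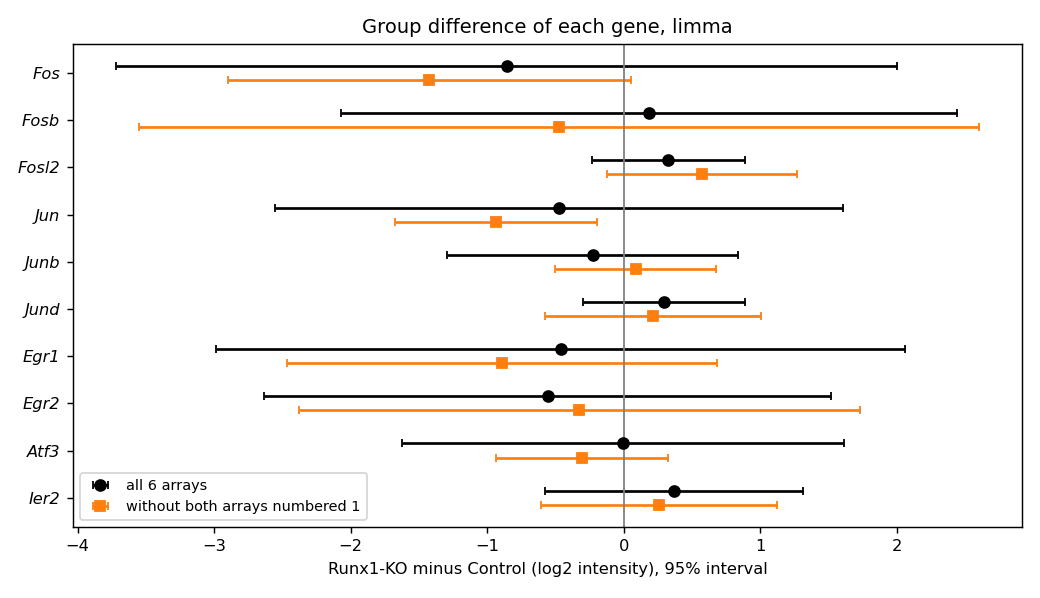
Log2 difference of Runx1-KO from Control and its 95% interval by limma, for the brightest probe set of each gene. Black circles are all 6 arrays and orange squares the fit without both arrays numbered 1. With all 6 arrays every interval includes 0, and without the arrays numbered 1 that of Jun lies below 0, from -1.68 to -0.19, before adjustment over all genes.

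The arrays numbered 1 set the spread, and this is the pattern for which the genes were chosen. They were the 2 highest of 6 for 7 of the 10 genes, namely Fos, Jun, Junb, Egr1, Egr2, Atf3 and Ier2, and for 9 of the 14 probe sets, where all genes gave 6.95% and those above background on at least 2 arrays 7.17%. Junb was above background only on the arrays numbered 1, so it met that filter through the same 2 arrays. Within Control the array numbered 1 was highest for 10 of 10 genes, and within Runx1-KO for 9 of 10. The shares above do not apply to these counts within groups, for which no share of all genes was counted. Fos on Runx1-KO 1 was 13.05-fold above the geometric mean of Runx1-KO 2 and 3, and on Control 1 it was 4.02-fold above that of Control 2 and 3. The same ratios were 8.74 and 3.59 for Egr1, 6.94 and 2.67 for Jun, and 4.30 and 2.30 for Atf3. They were larger in Runx1-KO for 7 of the 10 genes, and Egr2 went the other way, with 2.75 in Runx1-KO and 4.46 in Control. The difference between these ratios was not tested, since each rests on 1 array. The labels do not say that a number marks a shared batch.

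The numbers were not taken to pair the arrays, so comparisons by number describe single leukemias only. The matching shares of all genes were not counted. Array by array, 7 of the 10 genes were higher in Runx1-KO 1 than in Control 1, 7 were higher in Runx1-KO 2 than in Control 2, and 2 were higher in Runx1-KO 3 than in Control 3. Fos on the log2 scale differed by 0.27, -1.93 and -0.92 in these comparisons, and Jun by 0.44, -0.64 and -1.23. Without both arrays numbered 1 the Fos difference was -1.42 ± 0.54 (interval -2.90 to 0.05, limma adjusted p = 0.402 with 2 arrays per group). That of Jun was -0.93 ± 0.27 (adjusted p = 0.347) and that of Egr1 -0.89 ± 0.57 (adjusted p = 0.562). Among those 4 arrays, by the brightest probe sets, Runx1-KO lay below Control without overlap for 3 of the 10 genes, against 25.4% of all genes. These were Fos, Jun and Atf3, and on the second Jun probe set the groups overlapped. Runx1-KO lay above Control without overlap for 2, Fosl2 and Junb, against 21.9% of all genes, and Junb was below the limit on all 4 of these arrays.

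Over the 6 arrays the 45 pairs of the 10 genes had Pearson r values from -0.45 to 0.96 with a median of 0.62, and over the 4 arrays numbered 2 and 3 a median of 0.22. Within them Fos, Jun, Egr1, Egr2 and Atf3 followed each other closely. These 5 were picked after the correlations were seen, and their 10 pairs had r values from 0.75 to 0.96 with a median of 0.91, over arrays that share the 2 high ones. Over the 4 arrays numbered 2 and 3 the same pairs had r from 0.28 to 0.93, with a median of 0.67. Jund and Ier2 went together instead, with an r of 0.93 over 6 arrays and 0.95 over 4. Fosl2 had an r of -0.14 with the mean of the other 9 genes, and Egr1 one of 0.98. These are descriptions over few arrays and carry no test.

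Other immediate early genes, a list compiled with earlier results of these data known, showed the same arrays high. Of 43 measured, 24 had both arrays numbered 1 as the 2 highest of 6, and the median difference of the arrays numbered 1 from the other 4 was 1.16 on the log2 scale. The same median was 1.38 for the 10 AP-1 and EGR genes and 0.05 for all genes. Of the 200 genes with the largest such difference among 18194, 17 were from this list and 5 were Fos, Jun, Egr1, Egr2 and Atf3. The measure averages both arrays numbered 1, so a high level on 1 of them can raise it. The 10 erythroid markers had a larger median, 2.54, though both arrays numbered 1 were highest for only 2 of them. Among these markers Slc4a1 (rank 20) was high on Control 1 and not on Runx1-KO 1. Cxcl2, a neutrophil chemokine, had one of the largest differences of all genes (rank 3), at 1020.5, 98.4 and 152 in Runx1-KO and 3548, 307 and 140.3 in Control. Ppp1r15a, which restarts translation after stress, was 212, 27.3 and 60.2 in Runx1-KO and 226, 54.5 and 45.5 in Control. Both genes were highest on the arrays numbered 1 of both groups. Trib1, a pseudokinase that directs C/EBP-alpha to degradation, was 439, 165 and 60.6 in Runx1-KO and 194, 24.8 and 43.9 in Control. Plk2, a stress-responsive kinase, read 174 and 114 on Runx1-KO 1 and Control 1 and 12.2 to 32.6 on the other 4 arrays. Il1b and Ptgs2, inflammatory genes, were above background on 3 and 2 arrays, which included both numbered 1.

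As to the groups, 0 of the 43 passed over all genes, and 6 had an unadjusted limma p under 0.05, beside 12.6% of all genes. The difference was above 0 for 21 and below 0 for 22, with a median of -0.02. The lowest p was that of Cxcl1, another neutrophil chemokine, at 33.9, 28.4 and 36.4 in Runx1-KO and 15.2 to 16.5 in Control (limma adjusted p = 0.154), with 1 of 3 Control arrays above background. Sgk1, a kinase of the serum and glucocorticoid response, was next, at 559, 875.5 and 467 in Runx1-KO and 386, 236 and 230 in Control, a difference of 1.15 ± 0.33 (limma adjusted p = 0.287). For neither gene did the groups overlap, as was so for 20.9% of all genes.

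Factors that act before or beside these genes were examined in the same way. Among 14 measured genes of serum response factor, the ternary complex factors and MAP kinases, 1 had both arrays numbered 1 highest, and Srf, which encodes serum response factor, ranged only from 1685 to 2101 in Runx1-KO and from 1782 to 2007 in Control. The list's median difference of the arrays numbered 1 from the rest was 0.06, and 0 of the 14 passed between groups. Mrtfb, an actin-regulated partner of serum response factor, was 102, 120 and 56.7 in Runx1-KO and 149, 167 and 153 in Control, with a difference of -0.82 ± 0.31 (limma adjusted p = 0.363). Mapk8, which encodes the JUN kinase JNK1, was 111, 104 and 116 in Runx1-KO and 59.1, 101 and 77.9 in Control (limma adjusted p = 0.441).

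Of 13 measured bZIP partners, 2 had the arrays numbered 1 highest, and 0 passed between groups. These were Batf2 and Maff, named after their values were seen, and Maff, a small MAF protein, was 371, 130.2 and 37.4 in Runx1-KO and 359.6, 78.1 and 158 in Control. Creb1, which encodes the CRE-binding protein CREB, had the lowest p, at 344, 267 and 192 in Runx1-KO and 617, 553 and 609 in Control. The groups did not overlap and the difference was -1.19 ± 0.26 (limma adjusted p = 0.200). Batf, a bZIP protein of lymphoid and dendritic cells that pairs with JUN, was 173, 56.6 and 69.6 in Runx1-KO and 225, 233 and 163 in Control (limma adjusted p = 0.354). Of the 4 measured genes for EGR3, EGR4 and the NAB corepressors of EGR proteins, 0 passed and 0 had the arrays numbered 1 highest. Nab1 was 887, 1632 and 1024 in Runx1-KO and 980.0, 793 and 975.4 in Control, and Nab2 18.8, 117 and 58.9 in Runx1-KO and 67.6, 17.6 and 32.5 in Control.

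Among the 11 genes listed for MAP kinase feedback 0 passed and 0 had both arrays numbered 1 as the 2 highest. The list left out the MAP kinase phosphatases Dusp1 and Dusp2, counted with the other immediate early genes. For both, the arrays numbered 1 were the 2 highest. Dusp2 read 178 and 123 on Runx1-KO 1 and Control 1 and at most 50.9 elsewhere. By the difference of the arrays numbered 1, Spry1 and Dusp6 of the list ranked 139 and 191 of all genes. Spry1 was high only on Runx1-KO 1 (39.2, against at most 19.1 elsewhere). Dusp6, the phosphatase that switches off ERK, was 572, 92.3 and 104 in Runx1-KO and 724, 405 and 599.8 in Control, so only the Runx1-KO arrays numbered 2 and 3 were low (difference -1.67 ± 0.73, limma adjusted p = 0.412). Spred1, an inhibitor of RAS signalling, was 91.5, 115 and 92.1 in Runx1-KO and 212, 108 and 259 in Control (limma adjusted p = 0.393). Of 11 heat shock genes, 3 had both arrays numbered 1 highest, against 6.95% of all genes, and 0 passed between groups. The 3 were Hspa1a, Hspa1b and Hspb1, named after their values were seen. Hspa1a, a stress-inducible HSP70 gene, was 111.5, 12.8 and 8.3 in Runx1-KO and 51.9, 20.8 and 25.8 in Control. Its neighbour Hspa1b was 199, 42.3 and 37.5 in Runx1-KO and 190.3, 57.8 and 38.1 in Control, so both were high on the arrays on which Fos and Jun were high. Hsph1, a large chaperone, was 293, 277 and 231 in Runx1-KO and 449.5, 714 and 419 in Control, and the groups did not overlap (difference -0.95 ± 0.26, limma adjusted p = 0.275). Hspd1, the mitochondrial chaperonin, was 1665, 1415 and 1640 in Runx1-KO and 1925, 1913 and 1943 in Control (limma adjusted p = 0.520).

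**Figure D3:**
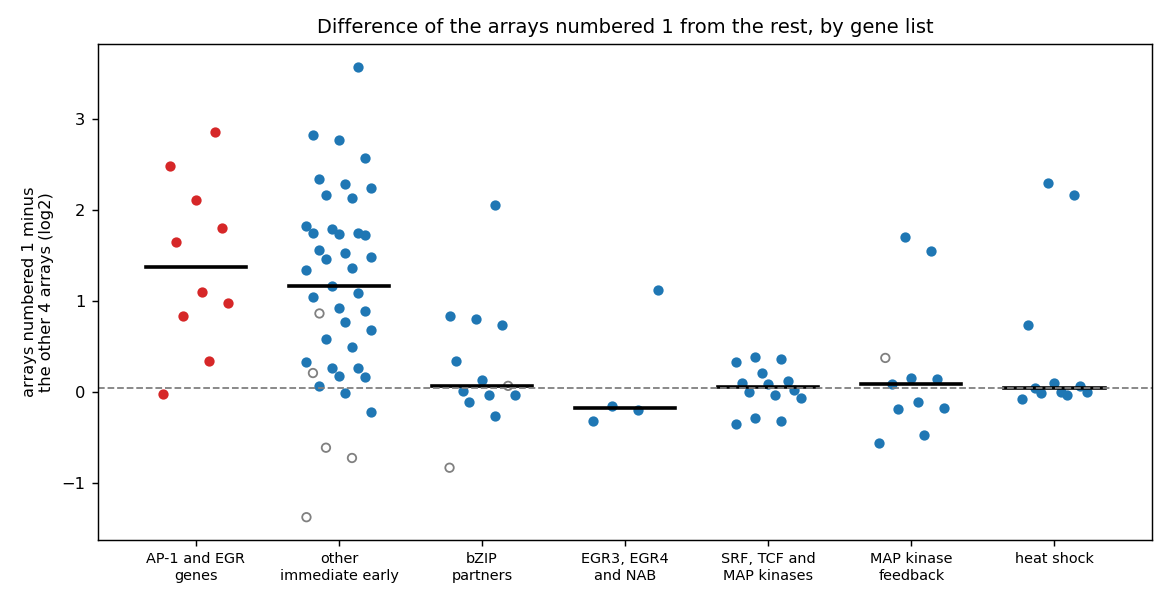
Mean log2 intensity of the 2 arrays numbered 1 minus the mean of the other 4 arrays, 1 point per gene, for the 10 AP-1 and EGR genes (red) and 6 other lists (blue). Open points were above background on fewer than 2 arrays, black bars are list medians and the dashed line is the median of all genes, 0.05. The AP-1 and EGR genes and the other immediate early genes have medians of 1.38 and 1.16. The medians of the other 5 lists drawn lie between -0.17 and 0.09, though single genes of them, such as Hspa1a (2.30), lie above the AP-1 and EGR median. Cell type lists are not drawn, and the median of the erythroid list was 2.54.

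Among genes other than the 10, those most like the mean of the 10, by Pearson r of log2 levels over the 6 arrays, were taken from 5242 genes above background on at least 2 arrays with a range of at least 1. The 8 closest were Gp1bb, Zfp36, Ampd3, E130308A19Rik, Dyrk3, Ccdc138, Dusp1 and Oas1e, with r from 0.96 to 0.97, and 12 genes exceeded 0.95. Zfp36, which encodes the mRNA decay factor tristetraprolin, was 3062, 1105 and 1214 in Runx1-KO and 3104, 1137 and 1427 in Control. Dusp1, a nuclear MAP kinase phosphatase, was 2222, 439 and 370.1 in Runx1-KO and 2499, 707 and 732 in Control. Both were on the list of other immediate early genes, and Gp1bb was on the megakaryocyte list. Gp1bb and Oas1e were above background on 2 arrays only.

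Other measures of the arrays were set beside the level of the 10 genes. The mean log2 deviation of the 10 was 1.05, -0.45 and -0.81 on the arrays labelled Runx1-KO and 0.83, -0.57 and -0.05 on Control. Gapdh, whose 3′ signal over 5′ signal climbs as RNA degrades, had a ratio of 7.10, 2.67 and 2.81 in Runx1-KO and 3.02, 2.77 and 2.77 in Control. The 18S ribosomal RNA ratio was 2.12, 1.61 and 1.66 in Runx1-KO and 1.70, 1.55 and 1.59 in Control, and the beta-actin ratio lay between 1.03 and 1.11 on all 6 arrays. Both the Gapdh and the 18S ratio were thus highest on Runx1-KO 1 and next highest on Control 1. These are the arrays on which the 10 genes read high. On Control 1 both ratios stood little above those of the arrays numbered 2 and 3. The summed intensity of 10 erythroid markers was 94, 222 and 85 in Runx1-KO and 5128, 125 and 92 in Control. Slc4a1, the red cell anion exchanger, was 2879 on Control 1 and at most 107 on the other 5 arrays. The part of RNA quality and of the erythroid signal in the immediate early levels was not tested.

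The 12 measured monocyte and macrophage markers summed to 6941, 5563 and 6443 in Runx1-KO and 9327, 7990 and 9548 in Control, with 9 of 12 below 0 in the group difference and 0 past the threshold. Adgre1, the macrophage protein F4/80, was 66.3, 57.9 and 73.0 in Runx1-KO and 167, 205 and 131 in Control. Of the complement genes C1qb was 57.8, 50.7 and 24.7 in Runx1-KO and 185, 80.1 and 154 in Control, C1qc was above background on 4 arrays and C1qa on 0. The 11 mature neutrophil markers summed to 16578 to 19170 in Runx1-KO and 8626 to 13283 in Control, and 11 of 11 were above 0, with 0 past the threshold. Of these lists, 1 monocyte and 1 neutrophil gene had both arrays numbered 1 highest, as did 2 of 10 erythroid, 0 of 8 T and NK cell, 2 of 7 B cell, 1 of 7 megakaryocyte, 0 of 8 stromal and 0 of 9 progenitor genes. The T and NK genes summed to 375 to 749 in Runx1-KO and 489 to 568 in Control, and the B cell genes to 303 to 533 in Runx1-KO and 315 to 435 in Control. The megakaryocyte genes summed to 592 to 1176 in Runx1-KO and 448 to 678 in Control, and the stromal genes to at most 234 in Runx1-KO and 457 in Control. The part of these cell types in the levels of the AP-1 and EGR genes was not tested.

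**Figure D4:**
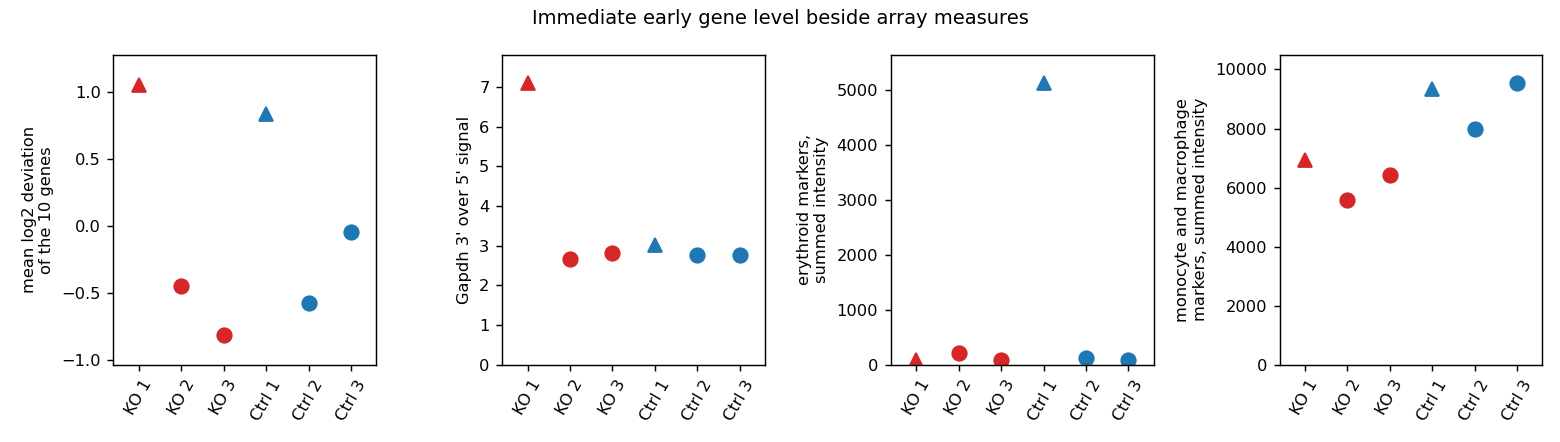
Mean log2 deviation of the 10 genes, Gapdh 3′ over 5′ ratio, and summed intensity of erythroid and of monocyte and macrophage markers on each array, Runx1-KO (red) to the left of Control (blue), triangles for the arrays numbered 1. The 10 genes are highest on both triangles. The Gapdh ratio is highest on Runx1-KO 1 (7.10) and next on Control 1 (3.02), and the erythroid sum is highest on Control 1 (5128).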

How the data were processed

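Total RNA of 6 leukemias was hybridised after biotin labelling of cDNA with a NuGEN kit, per the labels' protocols. The values the authors deposited are probe set intensity on a linear scale, with array medians of 24.4 to 26.0; their summarisation and scaling were not given in the sources used here. Of 45101 probe sets, 34958 had 1 gene symbol in the platform's annotation, 932 several and 9211 none, and the last 2 kinds were left out. The probe set of highest mean log2 intensity stood for a gene, which gave 18194 genes. Log2 intensities were compared with limma 3.58.1 (lmFit and eBayes, two-sided, no covariate) in R 4.3.3, with Benjamini-Hochberg adjustment over all genes at 0.05. Precision is limited by the number of arrays, 3 in each group. The genes, lists, the background limit and the promoter motifs were chosen with earlier results of these data known. Named genes were the 10 genes, the 2 of lowest p in each list among those above background on all arrays of a group, the 6 other immediate early genes with the largest difference of the arrays numbered 1, and the 8 most like the mean of the 10. Hoxa9, Srf, C1qa, C1qb, C1qc, Hspa1a, Hspa1b, Hspb1, Batf2, Maff, Dusp2, Spry1, Runx1, Xist and Eif2s3y were added after their values were seen. Of the 2 the rule takes from each marker list, only Adgre1 and Slc4a1 are given, and the other marker genes enter by counts and sums. Alternatives were quantile normalization, median centring, an offset of 16, a filter on dim genes, a floor at the limit, other uses of probe sets, other variance models, the replicate number as a block, and leaving out arrays.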

Additional observations from a re-analysis of the deposited data

How the results depend on the processing

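Under the 18 alternatives, 0 of the genes tested passed, which were all 10 except under the filter on dim genes, where Junb was left out and 9 were tested, with a lowest adjusted p of 0.300 (Fosl2, all probe sets). The median difference of the 10 genes, -0.12, ran from -0.61 to 0.24 when 1 array was left out, and stood at -0.60 with array weights, -0.32 without both arrays numbered 1 and 0.01 over all 14 probe sets. Signs turned for genes whose difference was small against its error; the causes were not tested. Atf3 was 0.14 with quantile normalization, 0.037 with median centring and 0.014 with the offset, against 0.00, and ran from -0.71 to 0.40 with 1 array left out. Fosb was -1.22 with array weights and -0.47 without both arrays numbered 1, and -0.51 to 1.32 with 1 array left out. Junb was 0.089 without both arrays numbered 1 and ran from -0.49 to 0.26, and the second Jun probe set was 0.026. With 1 array left out Fos ran from -2.09 to 0.10, Jun from -1.41 to 0.10, Egr1 from -1.51 to 0.15 and Egr2 from -1.43 to 0.16. Fosl2, Jund and Ier2 stayed above 0 in every alternative. The count of genes with both arrays numbered 1 highest was 6 or 7 under quantile normalization, median centring and the mean of probe sets.

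Over all genes 16 passed, 6 of them higher and 10 lower in Runx1-KO. The count was 64 (25 higher, 39 lower) with the offset, 34 (14 and 20) among genes above background on at least 3 arrays, 104 (39 and 65) with trend and robust fitting, 71 (27 and 44) with array weights, 141 (54 and 87) with the floor, and 30 (12 and 18) over all probe sets. It was 2 (1 and 1) with ordinary statistics and 2 to 3 (1 higher, 1 to 2 lower) with any 1 array left out. The replicate block left 0 (0 and 0), as did leaving out both arrays numbered 1; deviations of same-numbered arrays from their group means correlated at -0.01, -0.09 and 0.04 over all genes, so the numbers were not taken to pair the arrays, and with the block 0 of the 10 genes passed. With 3 arrays a group, differences of the size seen here for Fos cannot be told from the spread between leukemias.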
